A study of Mus musculus with 30 samples.

Results

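Splicing factors and other nuclear RNA-binding proteins were followed in the hippocampus of mice that resisted the antiseizure drug phenytoin and of mice that responded to it. The members were all array probes whose annotated gene symbol begins with Srsf, Sfrs, Hnrnp, Sf3 or Snrp, or with Rbm and a digit, apart from Rbm3. To these were added the probes of Srrt, Ncbp1, Ncbp2, Srrm1, Srrm2, Tra2a, Tra2b, Ptbp1, Ptbp2, Celf1 and Celf2. This gave 158 of the 25697 probes on the array, for 87 of 16593 named genes. All 30 animals were male mice of the outbred NMRI stock, 12 weeks old, and each gave hippocampal RNA to 1 bead array. Resistance was established by 6 Hz stimulation, in which a brief current evokes a seizure, and 15 mice were resistant and 15 were responders. Because the outcome of a seizure test defined the groups, effects of seizures in that test and of resistance itself cannot be told apart. The replicates were different mice, and the number of arrays limits the precision.

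In pre-mRNA splicing, introns are removed by the spliceosome, which is built from small nuclear RNAs bound by the Sm and other snRNP proteins. The SF3 complexes belong to the particle that recognises the branch site. SR proteins mostly favour the use of the exons they bind, whereas hnRNP proteins coat nascent transcripts and often favour skipping. The cap-binding complex sits on the 5′ cap of each new transcript and, with the adaptor Srrt (also called Ars2), passes it on to splicing, export, 3′-end processing or decay. Alternative splicing is rich in the brain and shapes, among others, the transcripts of ion channels and synaptic proteins.

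The promoters of the 3 genes with the smallest p-values among the members are printed here, because the letters before the start sites of such housekeeping genes can be set beside those of other genes. Each is the stretch of 250 bases that ends just before the annotated start, read 5′ to 3′ on the gene's own strand, from RefSeq on mouse build GRCm38.p6. Capitals mark the letters CGGAAG, the core that ETS-family transcription factors prefer, or their reverse complement CTTCCG. The Srrt stretch is chr5:137307675-137307924 on the minus strand, that of Rbm45 is chr2:76369734-76369983 on the plus strand, and that of Rbm5 is chr9:107771003-107771252 on the minus strand.
Srrt: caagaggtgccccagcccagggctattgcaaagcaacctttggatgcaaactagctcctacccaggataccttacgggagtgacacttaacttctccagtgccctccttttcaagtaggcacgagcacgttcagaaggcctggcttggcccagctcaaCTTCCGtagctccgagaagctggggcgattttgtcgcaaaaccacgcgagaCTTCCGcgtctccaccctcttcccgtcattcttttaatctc
Rbm45: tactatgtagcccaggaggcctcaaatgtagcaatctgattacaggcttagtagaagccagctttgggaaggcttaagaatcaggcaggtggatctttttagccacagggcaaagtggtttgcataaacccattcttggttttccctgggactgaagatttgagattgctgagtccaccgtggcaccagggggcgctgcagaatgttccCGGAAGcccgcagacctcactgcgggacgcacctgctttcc
Rbm5: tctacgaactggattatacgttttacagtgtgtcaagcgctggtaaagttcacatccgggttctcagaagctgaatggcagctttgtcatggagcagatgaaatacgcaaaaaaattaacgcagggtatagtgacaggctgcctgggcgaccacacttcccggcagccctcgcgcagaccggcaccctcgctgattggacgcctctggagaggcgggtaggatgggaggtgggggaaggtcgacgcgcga
The core occurred 2 times before Srrt, 1 time before Rbm45 and 0 times before Rbm5. Promoter stretches were found for 77 of the 87 member genes, 103 stretches in all, since a gene can have several starts. Searched on both strands over the 250 bases, CGGAAG was in 35.9% of the member promoters, in 17.1% of 21263 promoters of protein-coding genes and in 13.6% of all 32851 promoters. Among the promoters of genes with a probe higher in resistant mice at an unadjusted p under 0.05, 35.7% of 14 held it, close to the share of all member promoters. The cyclic AMP response element TGACGTCA was in 2.91% of member promoters and 1.55% of all promoters. For the NRF1 site letters GCATGCGC the shares were 1.94% and 2.26%, for CCAAT 38.8% and 33.8%, and for TATAAA 11.7% and 12.4%. None of these motifs contains another of them. A match describes the letters of the stretch and not the binding of a factor.

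Only probes with a detection p-value below 0.05 on 15 or more of the 30 arrays were tested. That kept 110 member probes, for 70 genes, of 12588 probes in all. Of the 110, 96 were detected on every array. The other 48 member probes were left out, 27 of them detected on no array. With these went 17 genes without any kept probe, among them Ptbp2, Tra2b, Srrm1, Hnrnpu, Hnrnpd and Hnrnpr. Closest to the limit were a probe of Hnrnpa3 outside it, detected on 14 arrays with mean levels of 5.02 in resistant and 5.21 in responder mice, and a probe of Hnrnpul1 inside it, on 16 arrays with 5.12 and 5.16. Levels are normalised log2 signals after background correction, and differences are log2, resistant minus responder.

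The arrays differed little. Between 12330 and 13223 probes were detected on each, and the median unprocessed log2 signal ran from 7.06 to 7.38. The tissue label was checked against markers: neuronal markers averaged 12.52 ± 0.10 in resistant mice, against 12.48 ± 0.06 in responders (SD, n = 15 each), astrocyte markers 9.99 and 10.00, and markers of hippocampal subfields 8.32 and 8.26. Oligodendrocyte markers averaged 10.89 ± 0.24 and 10.75 ± 0.30. Choroid plexus markers varied most, at 7.54 ± 1.36 in resistant and 8.33 ± 1.72 in responder mice.

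The splicing machinery differed little between the groups. Of the few probes with a low unadjusted p, most lay higher in resistant mice. Among the members, 5 of 10 SF3 probes and 5 of 13 snRNP probes lay above 0. So did 22 of 31 RBM, 16 of 27 hnRNP, 10 of 17 SR, 5 of 6 cap-binding and 4 of 6 Celf and Ptbp1 probes. Of the other spliceosome subunits, which were not members, 48 of 69 probes did. No member passed a limma adjusted p of 0.05 (smallest 0.124), and 20 had an unadjusted p under 0.05. The clearest were Srrt on all 3 of its probes, Rbm45, both probes of Rbm5, 3 of 5 probes of Hnrnph1 and 1 of 2 probes of Srsf3, all higher in resistant mice. At an unadjusted p under 0.05, 17 of the 110 kept member probes (15.45%), for 12 genes, lay higher in resistant mice, against 4.25% of all kept probes. On the lower side were 3 probes (2.73%), for 3 genes, against 3.3% of all kept probes. The members were chosen with earlier results of these data known, so these shares are no independent test of the list. Over both directions 7.55% of all kept probes were called in this way, and 0.00794%, which is 1 probe and not a member, passed the adjusted threshold. Differences above 0 were found for 67 of the 110, where 53.8% of all kept probes lay above 0.

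Sizes were small throughout. The 17 probes lay between 1.05-fold and 1.49-fold higher, and the median difference of the kept member probes was 0.03, beside 0.01 for all kept probes. A difference beyond 0.5 in size was seen for 2 probes, Rbm45 and Rbm47, and one beyond 0.2 for 4, the others being Hnrnpa1 and Rbm39. Counting each of the 70 genes once, by its brightest kept probe, 10 lay higher (14.3%) and 3 lower (4.29%), beside 4.48% and 3.13% of all 8841 genes counted in the same way. Differences above 0 were found for 40 of the 70 (57.1%), near the 54.9% of all genes, and the median was 0.02. These counts describe the kept probes, several of which share a gene, and the list as a whole was not tested.

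**Figure D1:**
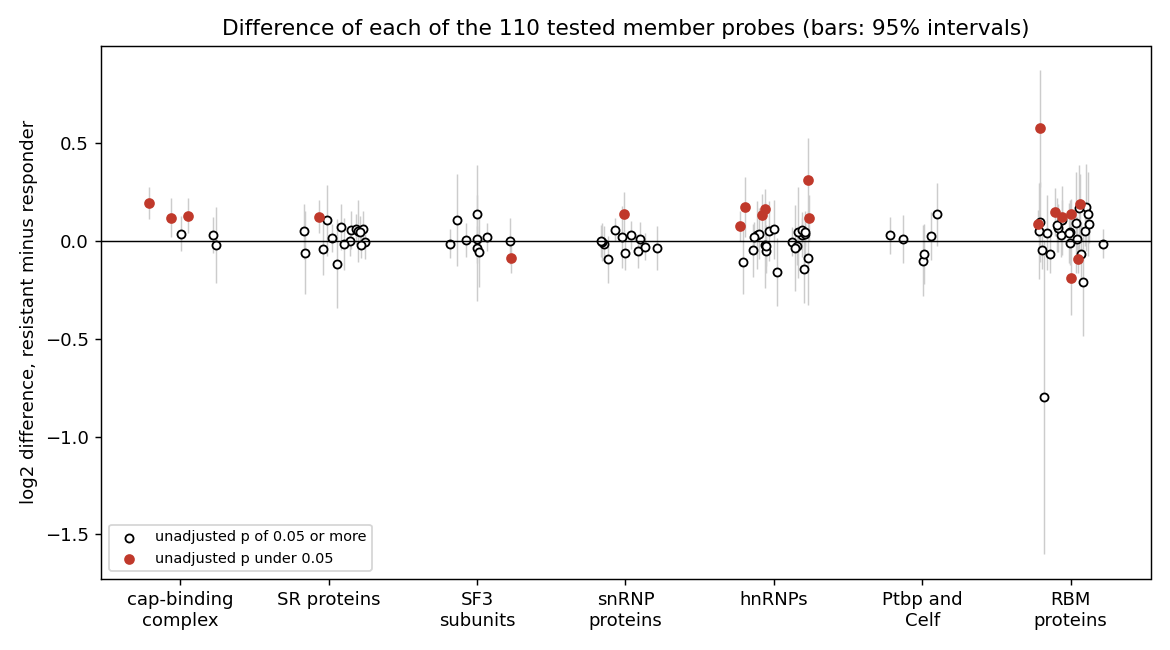
Log2 difference, resistant minus responder, of each of the 110 kept member probes by protein class, with 95% intervals as bars and red points for an unadjusted p under 0.05. Most points lie within 0.2 of 0, and the widest interval belongs to Rbm47 at -0.80.

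The cap-binding group held 6 kept probes for 3 genes. Of these, 3 lay higher (50%, beside 4.25% of all kept probes), all for the single gene Srrt. On the brightest Srrt probe (ILMN_2698361; gene on chromosome 5) resistant mice had a lowest level of 9.41, a median of 9.48 and a highest of 9.63, and responders had 9.08, 9.32 and 9.54. Every resistant mouse lay above the responder median, and the ranges overlapped because the upper responders reached into the resistant range. The spread was narrower in resistant mice, with means of 9.50 ± 0.07 and 9.31 ± 0.13 (SD, n = 15 each). The difference was 0.19 (SE 0.04, 95% interval 0.11 to 0.28), a fold of 1.14, with an unadjusted p of 4.13e-05 and a limma adjusted p of 0.124.

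The other Srrt probes went the same way. ILMN_1242239 ran from 9.10 through a median of 9.23 to 9.37 in resistant mice and from 8.87 through 9.11 to 9.29 in responders, a difference of 0.13 (SE 0.04, unadjusted p = 0.00658, limma adjusted p = 0.476). ILMN_1225615 ran from 8.42 through 8.55 to 8.80 and from 8.11 through 8.43 to 8.69, a difference of 0.12 (SE 0.05, unadjusted p = 0.0228, limma adjusted p = 0.617). The groups overlapped on both, and 13 and 14 of the 15 resistant mice exceeded the responder median. Within groups the brightest probe correlated with each of these over the 30 mice (Pearson r = 0.54 and 0.55, Spearman coefficients 0.48 and 0.45, permutation p = 0.00768 and 0.00387). With the 2 mice most distant from the median left out, r was 0.50 and 0.39.

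The cap-binding proteins that Srrt works with showed no such difference. Ncbp1, the large subunit of the complex, ran from 8.27 through a median of 8.41 to 8.64 in resistant mice and from 8.21 through 8.42 to 8.63 in responders, which overlapped almost wholly (difference 0.03, 95% interval -0.06 to 0.12). The 2 probes of Ncbp2, the small subunit that holds the cap itself, differed by 0.04 (95% interval -0.05 to 0.12) and -0.02 (-0.22 to 0.17). Of 7 kept probes for 5 RNA-decay, export and microRNA-processing partners of Srrt, among them Phax, Drosha and Dgcr8, 0 had an unadjusted p under 0.05 in limma and 0 an adjusted one. Since only 7.55% of all kept probes were called, a count of 0 among so few probes says little.

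**Figure D2:**
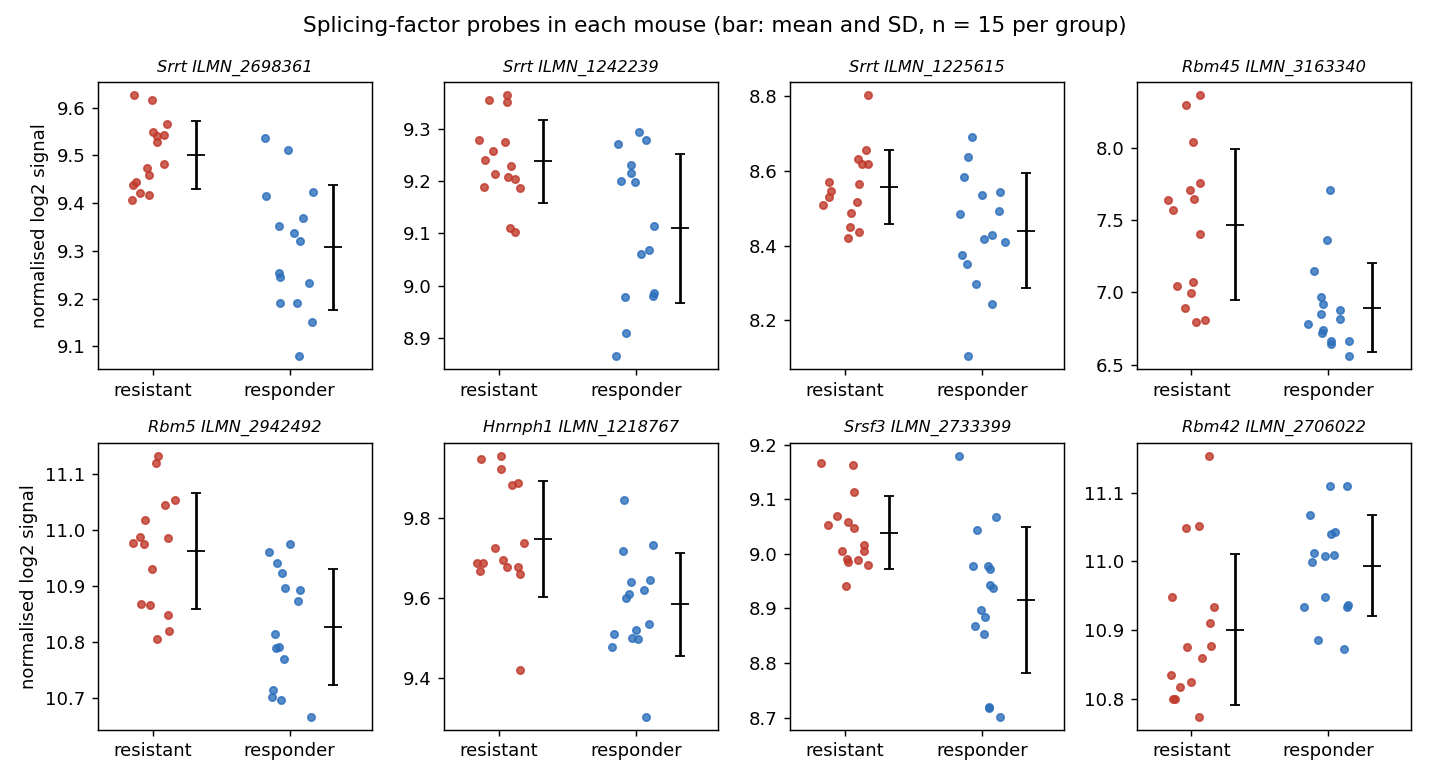
Normalised log2 signal of 8 member probes in each resistant mouse (red, left) and responder mouse (blue, right), with a bar for the mean and SD of 15 mice. On the brightest Srrt probe the lowest resistant mouse reads 9.41, above the responder median of 9.32, and on every probe shown the groups overlap.

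The brightest kept probe was also set against those of the 69 other member genes, mouse by mouse within groups, to find the genes whose level varied most like that of Srrt. Ptbp1, a repressor of neuron-specific exons in other cells, came first (r = 0.54, Spearman coefficient 0.47), followed by the SR-like protein Tra2a (r = 0.53, Spearman coefficient 0.44) and the SR protein Srsf2 (r = 0.53, Spearman coefficient 0.50). Their permutation p-values were 0.00433, 0.00512 and 0.00158, and each became 0.0883 after adjustment over the 69 relations, of which 0 passed. With the 2 mice most distant from the Srrt median left out, r was 0.60, 0.41 and 0.35. The largest r in size was negative, for Hnrnph2 (r = -0.56, Spearman coefficient -0.60), with the same adjusted permutation p of 0.0883. The members did not vary as one block. Over the 2415 pairs of member genes the median within-group correlation was 0.02, with a range from -0.59 to 0.69.

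SR proteins gave 17 kept probes for 11 genes. Of these, 1 lay higher (5.88%) and 0 lower, beside 4.25% and 3.3% of all kept probes. The higher one was a probe of Srsf3 (ILMN_2733399), an SR protein that also takes part in mRNA export. Resistant mice ran from 8.94 through a median of 9.02 to 9.17, and responders from 8.70 through 8.94 to 9.18. All 15 resistant mice exceeded the responder median, while the highest animal of all was a responder. Means were 9.04 ± 0.07 and 8.92 ± 0.13 (SD, n = 15 each), a difference of 0.12 (SE 0.04, unadjusted p = 0.00582, limma adjusted p = 0.469). The second Srsf3 probe differed by 0.06 (SE 0.05, unadjusted p = 0.2).

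The best-known SR proteins lay close to 0. Srsf2, the brightest of the class at levels near 11.12 in both groups, differed by -0.003 on that probe (95% interval -0.08 to 0.07) and by -0.005 on another (-0.10 to 0.09). Srsf1, the founding member of the family, differed by 0.06 (95% interval -0.02 to 0.14) and 0.01 (-0.06 to 0.08). Both probes of Srsf5 were lower on average in resistant mice (-0.06 and -0.12) and varied more among responders, with SDs of 0.19 against 0.39 on the brighter probe. They followed each other closely (within-group r = 0.90, Spearman coefficient 0.88, permutation p = 1e-05, the smallest that 100000 resamples give).

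In the core of the spliceosome, SF3 subunits gave 10 kept probes for 9 genes, 0 higher and 1 lower (10%). The snRNP proteins gave 13 probes for 9 genes, 1 higher (7.69%) and 0 lower. Of all kept probes 4.25% lay higher and 3.3% lower. Sf3b2, a subunit of the complex that contacts the branch site, was the brightest SF3 probe and ran from 11.08 through a median of 11.26 to 11.40 in resistant mice and from 11.15 through 11.34 to 11.50 in responders. The ranges overlapped over most of their length, and the difference was -0.09 (SE 0.04, unadjusted p = 0.0262, limma adjusted p = 0.629). The other SF3 probes differed by -0.06 to 0.14, and Sf3a2, the next by p, differed by 0.14 with a 95% interval from -0.11 to 0.39.

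Snrpc, a protein of the particle that recognises the 5′ splice site, ran from 6.65 through a median of 6.93 to 7.18 in resistant mice and from 6.59 through 6.76 to 6.96 in responders. Of the resistant mice 14 exceeded the responder median, with overlapping ranges and a difference of 0.14 (SE 0.05, unadjusted p = 0.0149, limma adjusted p = 0.565). Snrpn, an imprinted Sm protein abundant in neurons, was the brightest member probe at 14.08 ± 0.07 in resistant mice, against 14.02 ± 0.09 in responders (SD, n = 15 each). It differed by 0.06 (SE 0.03, unadjusted p = 0.0594), and its second, dimmer probe by -0.001.

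The hnRNP proteins gave 27 kept probes for 14 genes, with 6 higher (22.22%) and 0 lower, beside 4.25% and 3.3% of all kept probes. Hnrnph1, which binds runs of G in transcripts, had 5 kept probes, all with differences above 0, and 3 of them were among the 6. On ILMN_1218767 resistant mice ran from 9.42 through a median of 9.69 to 9.95, and responders from 9.30 through 9.60 to 9.84. Of the resistant mice 14 exceeded the responder median, and 1 resistant mouse lay among the lower responders. The difference was 0.16 (SE 0.05, unadjusted p = 0.0024, limma adjusted p = 0.387), and the other probes of the gene differed by 0.13, 0.12, 0.06 and 0.05. Hnrnph2 and Hnrnph3, its close relatives, differed by -0.09 and -0.15, each with an unadjusted p above 0.05.

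For the other hnRNP genes with a called probe, the probes of 1 gene were further apart. On a dim probe of Hnrnpa1 (ILMN_3024068), the classic hnRNP that favours exon skipping, resistant mice ran from 5.28 through 5.70 to 6.08 and responders from 4.90 through 5.32 to 5.85. Most resistant mice lay above the responder median, 13 of 15, and the difference was 0.31 (SE 0.11, unadjusted p = 0.00575, limma adjusted p = 0.469). Without background correction it was 0.09. The brighter Hnrnpa1 probe differed by -0.05 (95% interval -0.18 to 0.09), and because Hnrnpa1 has many near-identical processed copies in the genome, what each probe measures is uncertain.

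Hnrnpll, known from T cells for regulating the splicing of Ptprc, differed by 0.17 on one probe (SE 0.08, unadjusted p = 0.0295) and by -0.03 on the other. Hnrnpc, an abundant protein that binds stretches of U, differed by 0.08 on its probe at a level of 12.6 (SE 0.04, unadjusted p = 0.0486) and by 0.03 on a dimmer one. A probe of Hnrnpdl, named after its values were seen, was the only kept member probe on which 0 of 15 resistant mice exceeded the responder median. Its resistant mice ran from 8.85 through 9.03 to 9.26, inside the responders' 8.62 through 9.27 to 9.78, and the difference was -0.16 (SE 0.09, unadjusted p = 0.0742). A second Hnrnpdl probe differed by 0.04.

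The regulators Celf1, Celf2 and Ptbp1 gave 6 kept probes, with 0 higher and 0 lower at an unadjusted p under 0.05 in limma and 0 at an adjusted one. The share of all kept probes called was 7.55%, so 0 among so few probes says little. Celf2, a CUG-binding splicing regulator found in neurons, differed by 0.03 (95% interval -0.07 to 0.12) and 0.13 (-0.03 to 0.30), and the 3 probes of Celf1 by 0.02, 0.01 and -0.10. Ptbp1 differed by -0.07 (95% interval -0.22 to 0.09).

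RBM proteins were the largest class, with 31 kept probes for 21 genes. Of these, 6 lay higher (19.35%) and 2 lower (6.45%), beside 4.25% and 3.3% of all kept probes. Rbm45, which is known for gathering in inclusions in human motor neuron disease and frontotemporal degeneration, had the largest positive difference of all kept member probes. Resistant mice ran from 6.79 through a median of 7.57 to 8.36, and responders from 6.56 through 6.82 to 7.71. The resistant mice were spread over a wider range and 13 of them exceeded the responder median, while the lowest of them lay among the lower responders. Means were 7.47 ± 0.52 and 6.89 ± 0.31 (SD, n = 15 each), a difference of 0.57 (SE 0.15), or 1.49-fold (unadjusted p = 0.000416, limma adjusted p = 0.31). Without background correction it was 0.34. The authors' processed values gave the same and are not a separate check.

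Rbm5, which in human cells regulates the splicing of apoptosis genes, agreed between its probes. ILMN_2942492 ran from 10.80 through 10.98 to 11.13 in resistant mice and from 10.67 through 10.81 to 10.97 in responders. With 14 of 15 resistant mice above the responder median, the difference was 0.14 (SE 0.04, unadjusted p = 0.00135, limma adjusted p = 0.366). The second probe differed by 0.12 (SE 0.04, unadjusted p = 0.0045), and the pair varied together within groups (r = 0.59, Spearman coefficient 0.56, permutation p = 0.00073). Rbm6, which neighbours Rbm5 on chromosome 9, differed by 0.14 and 0.04 on a pair of dim probes, with unadjusted p-values of 0.2 and 0.666.

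Among the remaining RBM genes with a called probe, Rbm8a, the Y14 protein of the exon junction complex, differed by 0.15 (SE 0.06, unadjusted p = 0.0202). Rbm12 differed by 0.19 on 1 of 4 probes (unadjusted p = 0.0203) and by 0.03 to 0.06 on the others. Rbm18 differed by 0.09 on its brightest probe (unadjusted p = 0.0169) and by -0.07 and 0.05 on 2 more. The lower ones were Rbm42, by -0.09 (SE 0.04, unadjusted p = 0.013) on one probe and -0.02 on the other, and Rbm41, by -0.19 (SE 0.09, unadjusted p = 0.0427) on a probe detected on 17 arrays. The smallest limma adjusted p among these 5 genes was 0.55.

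Rbm47, a cofactor of C-to-U RNA editing that is best known from epithelia, had the widest spread of any kept member probe. Resistant mice ran from 4.67 through a median of 5.16 to 7.40, and responders from 4.53 through 7.17 to 8.26. Low and high animals occurred in both groups. The difference was -0.80 (SE 0.39, 95% interval -1.60 to 0.00, unadjusted p = 0.0505, limma adjusted p = 0.663), and without background correction it was -0.36. This probe was detected on 19 arrays, 8 from resistant mice and 11 from responders. The other Rbm47 probes were left out by the filter. Each was detected on no more than 2 arrays, with mean levels from 4.47 to 4.62, so every Rbm47 value rests on a single probe.

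The level of Rbm47 moved with markers of the choroid plexus, the secretory epithelium that lies against the hippocampus in the ventricle. Of 15 such markers 11 were measured. All 11 were lower on average in resistant mice, 0 of them at an unadjusted p under 0.05 in limma. Markers of the same tissue are not separate observations. Per-mouse means of the 11 ran from 5.36 to 9.49 in resistant mice and from 5.78 to 10.12 in responders. The resistant mouse with the highest marker mean read 7.40 for Rbm47 and the one with the lowest read 4.67. In responders those values were 8.26 and 4.63. Over the 30 mice the correlation was 0.95 (Spearman coefficient 0.95, both with permutation p = 1e-05, the smallest that 100000 resamples give), and 0.94 with the 2 most distant mice left out.

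The marker means were unevenly spread, with 11 mice under 7, 4 between 7 and 8 and 15 over 8. Among the 15 over 8, r was 0.83 (Spearman coefficient 0.82, permutation p = 1e-04). Among the 11 under 7, where Rbm47 was near the detection limit, r was 0.54 (Spearman coefficient 0.80) with a permutation p of 0.0881 for r. It was 0.90 within resistant mice and 0.97 within responders. With the marker mean as a covariate the Rbm47 difference was -0.24 (unadjusted p = 0.0977). In tissue RNA, fewer cells of a type and less RNA per cell cannot be told apart.

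The members that led the higher side showed no measurable relation with these markers. Against the marker mean, r was -0.18 for Srrt, -0.12 for Rbm45, 0.02 for Rbm5, -0.15 for Hnrnph1 and -0.18 for Srsf3, with permutation p-values of 0.341 or more. The Spearman coefficients were -0.16, -0.09, -0.09, -0.18 and -0.23. Adjusted over the 6 relations, that of Rbm47 had a p of 6e-05 and the others 0.625 or more. With the marker mean as a covariate, 15 member probes lay higher (13.64%) and 3 lower (2.73%), beside 3.432% and 2.995% of all kept probes. The Srrt difference was then 0.19.

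**Figure D3:**
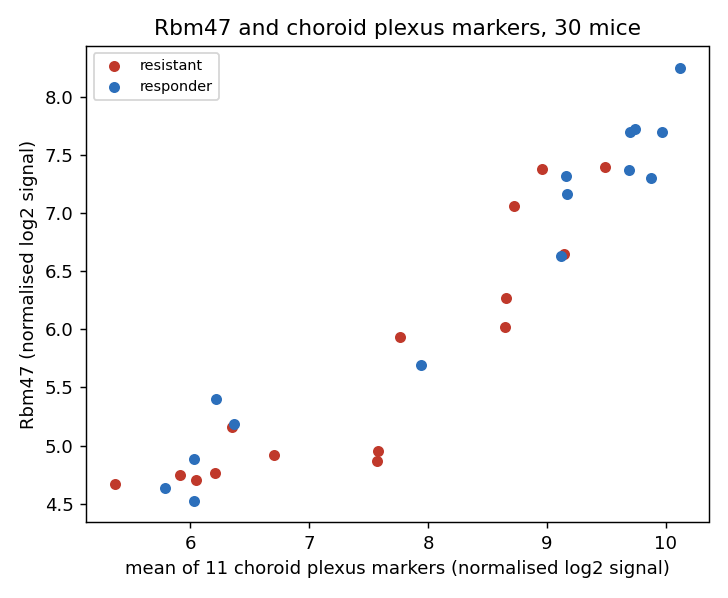
Normalised log2 signal of Rbm47 against the mean of 11 choroid plexus markers in each of 15 resistant (red) and 15 responder mice (blue). Rbm47 is near 5 in mice with marker means under 7 and reaches 8.26 in the responder with the highest marker mean of 10.12.

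For 31 member genes more than 1 probe was kept, which allows a check of each gene against itself. The probes had the same sign for 19 genes and mixed signs for 12. The brightest probe was compared with each other probe of its gene within groups, 40 pairs in all, with a median r of 0.29. After adjustment over the 40 pairs, 14 passed a permutation p of 0.05, all positive, among them Srsf5 (r = 0.90), Snrpd1 (r = 0.73), the best pair of Hnrnph1 (r = 0.67), Rbm5 and both pairs of Srrt. An r below 0 was found for 6 pairs. Where a gene's probes do not vary together, a difference on one of them was not taken to hold for the gene. Whether such probes measure different things or mainly noise was not tested.

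**Figure D4:**
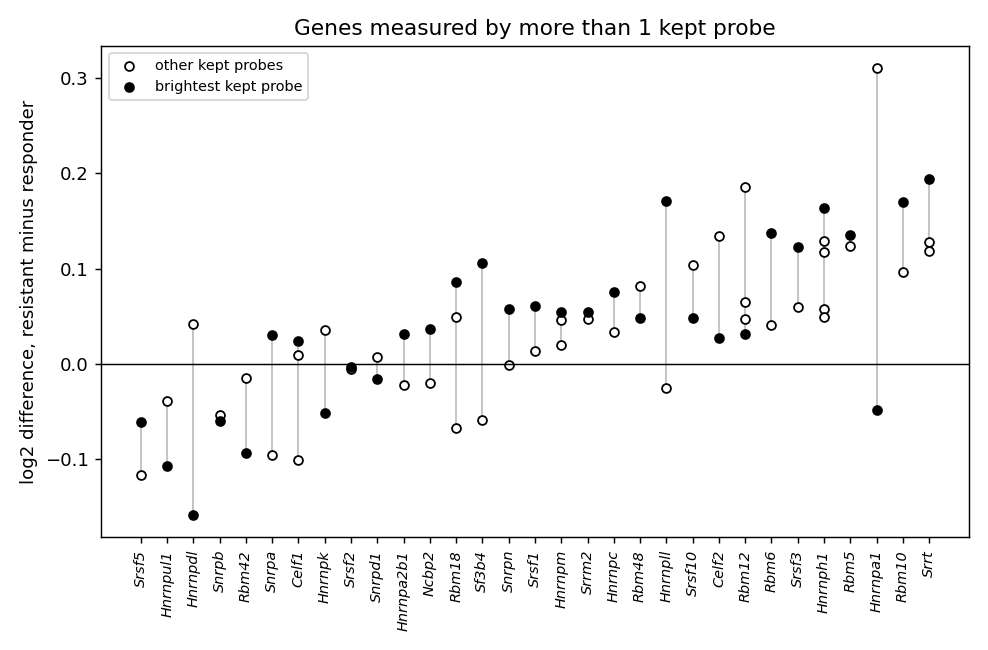
Log2 difference, resistant minus responder, of every kept probe of the 31 genes with more than 1, the brightest filled and the others open, joined by a line per gene. Srrt, Rbm5 and Hnrnph1 have all their probes above 0, whereas the probes of Hnrnpa1 lie at 0.31 and -0.05.

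The rest of the splicing pathway was described from 5 lists of other genes. They held 137 genes, of which 99 had a kept probe, 145 probes in all, and 12 of these (8.28%) lay higher and 4 (2.76%) lower at an unadjusted p under 0.05, beside 4.25% and 3.3% of all kept probes. None passed the limma adjusted threshold, and the median difference was 0.02. Other spliceosome subunits gave 69 probes, 48 of them above 0, with 8 higher (11.59%) and 1 lower (1.45%). Prpf3 of the tri-snRNP differed by 0.13 (unadjusted p = 0.0161), and by 0.12 and 0.17 on its other kept probes. The second-step factor Prpf18, with 1 kept probe, differed by 0.10 (unadjusted p = 0.0209). For Syf2 and the GTPase Eftud2 the called probes, at 0.09 (unadjusted p = 0.00945) and 0.13 (0.0177), stood beside others near 0. The brighter Syf2 probe differed by 0.01 (unadjusted p = 0.86), and the other Eftud2 probes by 0.02 and 0.01. The lower one was Snrnp70, a partner of Snrpc in the particle that binds the 5′ splice site, at -0.17 (SE 0.06, unadjusted p = 0.00447, limma adjusted p = 0.438).

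Kinases of SR proteins gave 9 probes, with Srpk1 at 0.10 (unadjusted p = 0.0357) and a dim probe of Clk2 at -0.23 (unadjusted p = 0.0456). The brighter Clk2 probes had the other sign, at 0.11 and 0.05 (unadjusted p = 0.0795 and 0.39). Exon junction and export factors gave 15 probes, of which 0 lay higher or lower by an unadjusted p under 0.05 in limma. With 7.55% of all kept probes called, that count says little. Other splicing regulators gave 45 probes, 3 higher (6.67%) and 2 lower (4.44%), beside 4.25% and 3.3% of all kept probes. The nuclear matrix protein Matr3 stood at 12.99 ± 0.06 in resistant mice, against 12.89 ± 0.09 in responders (SD, n = 15 each), a difference of 0.10 (unadjusted p = 0.00308, limma adjusted p = 0.401), while its dimmer probe differed by 0.0014. Its binding partner Sfpq differed by 0.13. The neuronal stabiliser of transcripts Elavl4 differed by 0.14 on the called probe and by -0.04 and 0.07 on the others. On the lower side, Rbmx differed by -0.15. The neuronal regulator Celf4 differed by -0.12 on the called probe and by 0.02 on a brighter one.

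Scaling each array by its median in place of quantile normalisation placed the median of all kept probes at 0.03, and 924 of them lay higher and 229 lower, a share of 80.1% higher where the reported setting gave 56.3%. Under it 20 member probes lay higher and 2 lower, and the brightest Srrt probe passed at 0.22 (limma adjusted p = 0.0328). Over all 12 alternatives the adjusted p of that probe ran from 0.0328 to 0.768. Leaving out responder mouse 6 brought it to 0.0453, and no other single mouse did so. Among the samples numbered 1 to 16, 10 member probes lay higher and 4 lower, and among those numbered 17 to 30, 8 and 4. Of the higher ones, 10 and 6 were among the 17. Those 17 were called from all 30 mice, which include each part, so this overlap is partly built in and is no check between the parts. In the first set the member shares were 9.09% and 3.64%, beside 3.678% and 2.685% of all kept probes. In the second set they were 7.27% and 3.64%, beside 3.162% and 2.86%. Higher calls among all kept probes numbered 463 and 398 in these smaller sets, where the reported setting gave 535.

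**Figure D5:**
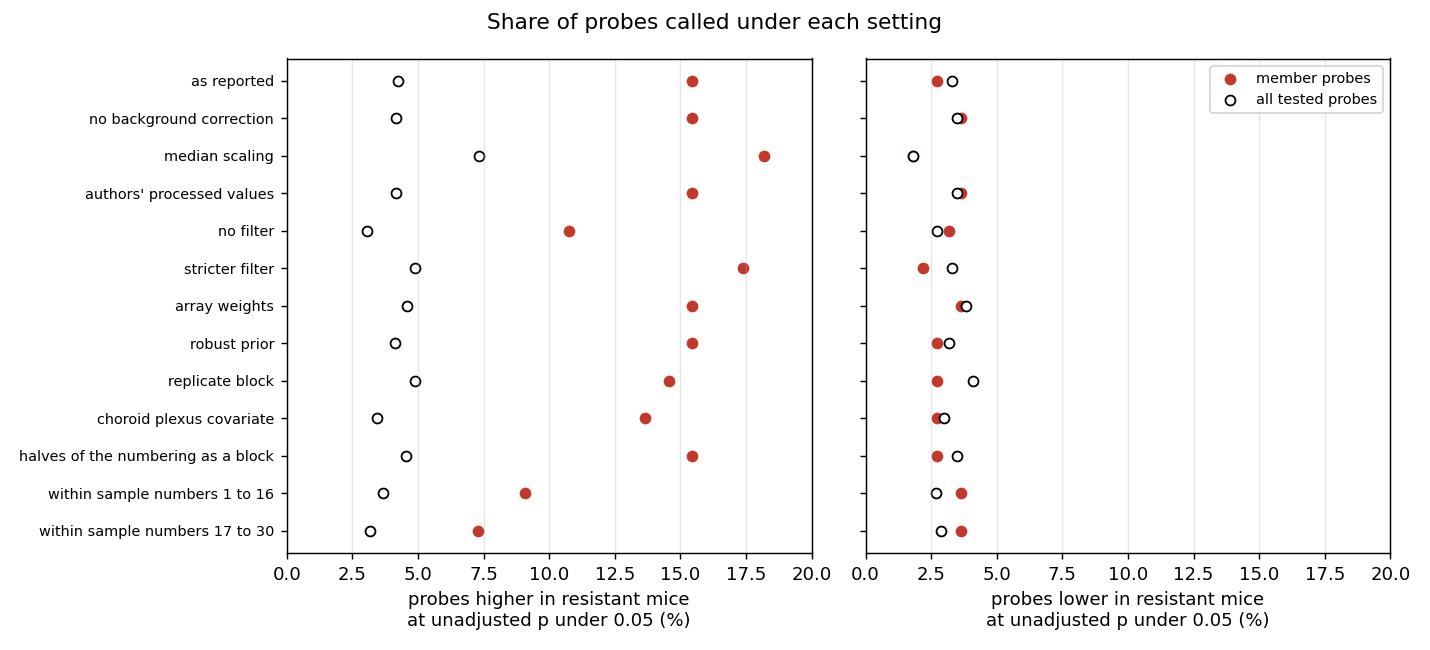
Share of kept member probes (red) and of all kept probes (open) that lay higher (left) or lower (right) in resistant mice at an unadjusted p under 0.05, under the reported setting and 12 alternatives. On the higher side the member share is 15.45% as reported and 7.27% at its lowest, within the samples numbered 17 to 30, and lies right of the open point in each row. The members were chosen with earlier results of these data known, and the rows share the same mice.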

How the data were processed

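Hippocampal RNA of 15 resistant and 15 responder mice was hybridised to Illumina bead arrays, 1 per mouse. The authors deposited log2 signals before normalisation with a detection p-value for each probe and array, and a table of processed log2 values. The submitters' processing notes name lumi, and no version or steps are given in the sources used here. The deposited log2 signals were put back on a linear scale, and neqc in limma 3.58.1 (R 4.3.3) corrected the background from the detection p-values, added an offset of 16 and applied quantile normalisation. Gene names came from the platform annotation, and chromosomes and promoter stretches from RefSeq on GRCm38.p6.

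Probes with a detection p under 0.05 on at least 15 arrays were fitted with lmFit and eBayes with an intensity trend, without covariates, and Benjamini-Hochberg adjustment ran over all 12588. A probe is called higher or lower at an unadjusted p under 0.05. Permutation tests were two-sided with 100000 resamples. The fit was tested on simulated data. Alternatives were median scaling, no background correction, other filters, the authors' processed values, array weights, a robust prior, blocks for the replicate number and for the sample numbering, fits within each part of the numbering, a choroid plexus covariate, and leaving out each mouse. The authors' processed values gave the same counts and medians as the fit without background correction, so they add no separate check.

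The genes named are the members called at an unadjusted p under 0.05, all kept probes of Srrt, Ncbp1 and Ncbp2, in each class the brightest probe and the 2 with the smallest p, further probes of these genes, the 3 probes of widest spread, and up to 4 called genes per direction of each other list, given with their other kept probes. A list gene entered under both an older and a newer symbol was counted once. Other members are named for the description they illustrate, after their values were seen. The members and lists were chosen with earlier results of these data known.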

Additional observations from a re-analysis of the deposited data

How the results depend on the processing

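The count of all kept probes at an unadjusted p under 0.05 and the member counts stayed within 1.5 times their reported values under the alternatives not named here, and the members' median difference lay between 0.02 and 0.06. With no filter 1485 of all probes had an unadjusted p under 0.05 and 5 member probes lay lower. The count of all kept probes past the adjusted threshold was 0 within sample numbers 1 to 16, with no filter, with the replicate block and with the choroid plexus covariate, 2 with the numbering as a block, and 3 within numbers 17 to 30. Member probes that lay higher numbered 10 (9.09%) within sample numbers 1 to 16 and 8 (7.27%) within 17 to 30, beside 3.678% and 3.162% of all kept probes. Of the other splicing genes, 4 and 5 probes lay higher and 2 and 2 lower in these parts, and 2 lay lower with median scaling. The Srrt difference was 0.22 with median scaling, past the adjusted threshold. Of 725 values of the 61 named probes under alternatives, 21 had the other sign, and the reasons were not tested.

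Within sample numbers 1 to 16 the sign turned for Sf3b2 (0.0147), the brighter Ncbp2 probe (-0.0206), Srsf1 (-0.0172), Srsf2 (0.0121 and 0.01001), a dim Hnrnpc probe (-0.0540), a Rbm12 probe (-0.0684) and Celf1 (-0.0326 and -0.0520). Within numbers 17 to 30 it turned for Rbm39 (0.00444) and the dimmer Snrpn probe (0.0284). With median scaling it turned for Srsf2 (0.0384 and 0.0374) and the dimmer probes of Hnrnpll (0.00636), Rbm42 (0.0241) and Snrpn (0.0380). With array weights it turned for Srsf2 (0.00276 and 0.00822) and Snrpn (0.0105), and with the choroid plexus covariate for Rbm42 (0.00205) and Celf1 (-0.00836).

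Leaving out each mouse in turn gave 0 to 2 probes past the adjusted threshold, 14 to 19 member probes higher and 2 to 5 lower, with 5 without responder mouse 11. The Srrt difference ran from 0.18 to 0.21. Single probes near 0 crossed it: the dimmer Ncbp2 probe (-0.0578 to 0.0240), Srsf2 (-0.0172 to 0.0124 and -0.0212 to 0.0126), Rbm42 (-0.0288 to 0.00757), Celf1 (-0.00902 to 0.0399) and Snrpn (-0.0189 to 0.0133).

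Resistant and responder mice carry the same replicate numbers, and mice that share one have adjacent sample numbers. Whether these numbers pair the mice was not settled. Of 15 pairs, 8 had correlated deviations over 0.1 (range -0.32 to 0.28), and 4 resistant mice correlated best with the responder of their own number. With the replicate block 16 member probes lay higher and 3 lower (14.55% and 2.73%), beside 4.89% and 4.08% of all kept probes. All kept probes then gave 616 higher and 514 lower, where the reported setting gave 535 and 416. Of the other splicing genes 16 lay higher and 9 lower. Dim probes limit what can be read. Without background correction the differences of Hnrnpa1, Rbm47 and Rbm45 were smaller in size, and whether this depends on the level was not tested.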
